A study of Mus musculus with 2 samples.

Results

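Immature rods were the retinal cells that had switched on Nrl and Nr2e3, the transcription factors that set and hold rod identity, while carrying few transcripts of late rod maturation. They were chosen by counts alone. A member had at least 1000 UMIs (unique molecular identifiers, 1 per captured transcript) outside mitochondrial genes, at least 3 UMIs of Nrl and Nr2e3 together with both detected, fewer than 2 of 5 maturation genes detected (Gnat1, Cnga1, Rp1, Impg1, Rdh12) and fewer than 3 of 6 cone genes detected (Opn1sw, Opn1mw, Arr3, Gnat2, Pde6h, Pde6c). The rule found 1618 immature rods among 6330 cells with enough UMIs, 992 of 3541 in the control library and 626 of 2789 in the Mettl3-CKO library. Because these genes chose the cells, their levels below are descriptions and support nothing.

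The study dissociated mouse retinas at postnatal day 7 with papain and read the 3′ ends of transcripts of single cells. In the Mettl3-CKO group, Six3-Cre, a Cre driver active in retinal progenitor cells, deleted a floxed Mettl3, which encodes the enzyme that methylates adenosines of mRNA (N6-methyladenosine, m6A). The study described the deletion for the central retina, so cells from elsewhere could have kept the gene. The control group is labelled Ctrl, with no alleles given, and came from the same litter. Each group was 1 library that pooled 2 retinas of 2 pups, so no comparison has a replicate. Every difference is therefore between these libraries, without a test, and the 95% intervals cover counting error only.

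Rod birth follows a short sequence. A dividing progenitor gives a precursor that expresses Otx2 and Neurod4, Otx2 and Crx open the photoreceptor programme, and Nrl with its target Nr2e3 then holds the cell to the rod path and represses cone genes. The proteins that turn light into a signal appear later, together with the outer segment and the synapse. Without Nrl, such precursors are known to become cone-like cells, so cone transcripts in young rods are of interest in their own right.

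Immature rods of the control library held 4429572 UMIs, and those of the Mettl3-CKO library 3350279. Per member the median depth was 4336 UMIs in control and 4507.5 in Mettl3-CKO, and the median number of genes seen was 2192.5 and 2242. The median mitochondrial share was 5.12% in control and 3.82% in Mettl3-CKO members, and 56 and 17 members had 20% or more. The libraries shared 5 barcodes among complete cells, and 1 of these barcodes was an immature rod in both. Sex-linked transcripts differed between the pools. Transcripts of Y-linked genes without Xist were seen in 62.4% of control and 25.4% of Mettl3-CKO members, and Xist without Y-linked genes in 0.706% and 52.9%. The part of sex in the differences below was not tested. Values in cells with Y-linked transcripts and no Xist are given where they moved a share, a list median or a count of genes. For single genes such values are given only in part.

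The level of Samd7 describes the class but does not test its label. Samd7, a rod repressor of cone and non-rod genes that the rule did not use, was at 431 UMIs per 1e+06 UMIs of the class (CPM; 95% interval 412 to 451) in control immature rods, against 8.35 CPM in Neurod4-positive precursors (Neurod4 of at least 2 UMIs, Nrl plus Nr2e3 under 3) and 553 CPM in maturing rods (at least 2 of the 5 maturation genes). In the Mettl3-CKO library the same levels were 376 (356 to 398), 13.8 and 490 CPM. Samd7 was thus on in immature rods and near background in precursors of both libraries. The precursors were chosen to be low in Nrl and Nr2e3, so a low level of a rod gene was built into them. Samd7 was higher still in maturing rods, so its level does not mark the members as immature. After each cell was thinned to 1000 UMIs, 33.3% of control and 29.7% of Mettl3-CKO members had a Samd7 UMI. Amacrine cells, which should lack it, had one in 6% and 6.82% of cells, at unthinned median depths of 10898 and 11618.5 UMIs. Nrl was at 1669 CPM in control and 1480 CPM in Mettl3-CKO members, and Nr2e3 at 3684 and 2972 CPM.

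Samd7 (ENSMUSG00000051860) lies on the plus strand of GRCm38 at chr3:30746293-30767174, Nrl (ENSMUSG00000040632) on the minus strand at chr14:55518978-55524981 and Nr2e3 (ENSMUSG00000032292) on the minus strand at chr9:59942771-59960659. These 3 genes mark the cells, so 250 bases before a transcript start of each were read from the RefSeq promoter table for GRCm38.p6. The Samd7 window ends just before the gene start given here. Those of Nrl (chr14:55524253-55524502) and Nr2e3 (chr9:59950080-59950329) lie within the gene spans given here. The windows were searched on both strands for TAATCC, the site that Crx binds, and for TGCTGA, the core of the site that Nrl binds. Only the Samd7 window held a match, TAATCC read on the other strand as GGATTA at 134 to 139 bases before the start. It is shown here in capitals within 30 bases at chr3:30746142-30746171, plus strand, 5′ to 3′.
Samd7: aaggctaaggaaGGATTAtgctaaaggcta
TAATCC occurred in 6.25% and TGCTGA in 16.1% of all 32851 promoters of that length, so the match is a description and says nothing of binding. The windows of Nrl and Nr2e3 held neither motif, but they do not cover the bases before the gene starts given here.

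Immature rods made up a smaller share of cells in the Mettl3-CKO library. In control they were 28.01% of all cells (26.5 to 29.5), and in Mettl3-CKO 22.4% (20.9 to 24.0), a ratio of 0.801 (0.735 to 0.874). Thinning every cell to 1000 UMIs before the rule gave 30.5% and 24.8%, a ratio of 0.812 (0.749 to 0.881). Maturing rods were 24.7% and 22.4% of cells, a ratio of 0.905 (0.828 to 0.991). Neurod4-positive precursors were the other way around, at 16.9% in control and 20.2% in Mettl3-CKO, a ratio of 1.20 (1.08 to 1.33).

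**Figure D1:**
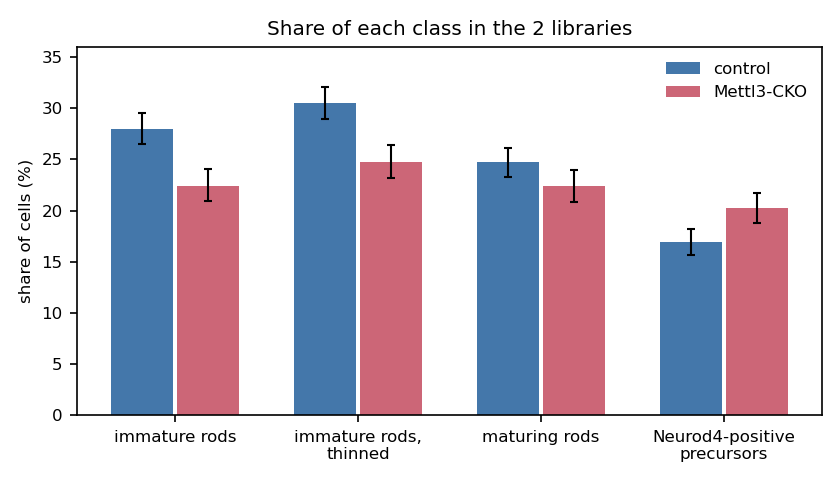
Share of cells with at least 1000 UMIs (%, vertical axis) that were immature rods, immature rods after thinning to 1000 UMIs, maturing rods or Neurod4-positive precursors, in the control (blue) and the Mettl3-CKO library (red), 1 library each; bars show shares and lines exact 95% binomial intervals. Immature rods went from 28.01% to 22.4% and precursors from 16.9% to 20.2%.

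Among rods, the balance of the classes was closer. Immature rods were 53.1% of control rods and 50.1% of Mettl3-CKO rods, a ratio of 0.943 (0.879 to 1.01), and after thinning 76.1% and 75.9%, a ratio of 0.997 (0.951 to 1.04). All rods together were 52.7% of control and 44.8% of Mettl3-CKO cells, a ratio of 0.850 (0.807 to 0.895). Over the cells with a UMI of Nrl or Nr2e3, immature rods were 37.9% in control and 32.7% in Mettl3-CKO. In cells with Y-linked transcripts and no Xist, the ratio of immature rods among all cells was 0.888 (0.763 to 1.03), an interval that includes 1. The rule reads Rp1, a microtubule protein of the outer segment that was itself higher in the Mettl3-CKO library. Leaving Rp1 out of the rule gave a ratio of 0.823 (0.769 to 0.880).

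The 5 maturation genes were not equal in setting the edge of the class. Rp1 was seen in 62.0% of control and 67.4% of Mettl3-CKO members, Rdh12, a retinal dehydrogenase, in 1.92% and 1.60%, and Cnga1, a subunit of the rod channel, in 1.61% and 0.639%. Gnat1, rod transducin, was in 0 of 992 and 0 of 626 members, and Impg1, a matrix proteoglycan, in 2 and 0 members. None of the 5 was seen in 340 control members (34.3%) and 190 Mettl3-CKO members (30.4%). Just inside that edge, the 652 control and 436 Mettl3-CKO members with 1 of the 5 genes had Sag, rod arrestin, at 1706 and 1060 CPM, and just outside it the 414 and 286 cells with 2 of the 5 had it at 4128 and 2849 CPM. At the lower edge, the 25 control and 26 Mettl3-CKO members with Nrl plus Nr2e3 of exactly 3 had Samd7 at 52.2 and 123 CPM, and the 36 and 35 cells with a sum of 2 at 7.94 and 7.86 CPM.

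Immature rods stood between precursors and maturing rods for Pdc and Samd11, and above both for Pcp2, Gngt2 and Ccdc136. Against precursors they were high in Pdc, phosducin, which binds transducin (2974 against 58.9 CPM in control, 2576 against 52.0 in Mettl3-CKO), in Samd11, a partner of Samd7 (613 against 14.1, 566 against 18.3), and in Tulp1, a protein of photoreceptor transport (1079 against 39.2, 969 against 30.1). They were low in Mybl1, a Myb-family factor (23.9 against 407, 44.8 against 418), and in Dll4, a Notch ligand (1.58 against 24.6, 1.49 against 21.8). Against maturing rods the lowest gene outside the rule by the smaller log2 ratio of both libraries was Rcvrn, recoverin, a calcium sensor of phototransduction (37.2 against 484, 28.4 against 437). Elk3, an ETS-family factor, led the genes that were higher than in maturing rods (14.2 against 1.20, 12.5 against 2.54), followed by Pcp2, a G-protein regulator best known from rod bipolar and Purkinje cells (88.3 against 16.3, 187 against 51.0).

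Of 6 cone genes outside the rule that were measured, Gngt2, Ccdc136 and Gnb3 were highest in immature rods, while Thrb, Rxrg and Cngb3 were lower than in maturing rods in both libraries. Gngt2, the cone transducin gamma subunit, was at 613 CPM in precursors, 3580 CPM in immature rods and 1935 CPM in maturing rods of the control library, and at 694, 3483 and 2251 CPM in the Mettl3-CKO library. Ccdc136 followed the same order, at 65.9, 694 and 247 CPM in control and 63.3, 589 and 312 CPM in Mettl3-CKO. Against maturing rods, Thrb, a thyroid hormone receptor of cone fate, had log2 ratios of -2.13 in control and -1.77 in Mettl3-CKO, Rxrg, its retinoid receptor partner, of -0.47 and -0.83, and Cngb3, a subunit of the cone channel, of -0.15 (-0.40 to 0.10) and -0.28. In cells thinned to 1000 UMIs, Gngt2 was seen in 86.5% and 89.0% of immature rods and in 61.8% and 63.3% of maturing rods, against 32% and 27.3% of amacrine cells. Gngt2 overlaps Abi3 on the other strand, and whether the counting used strand is not given in the sources used here.

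**Figure D2:**
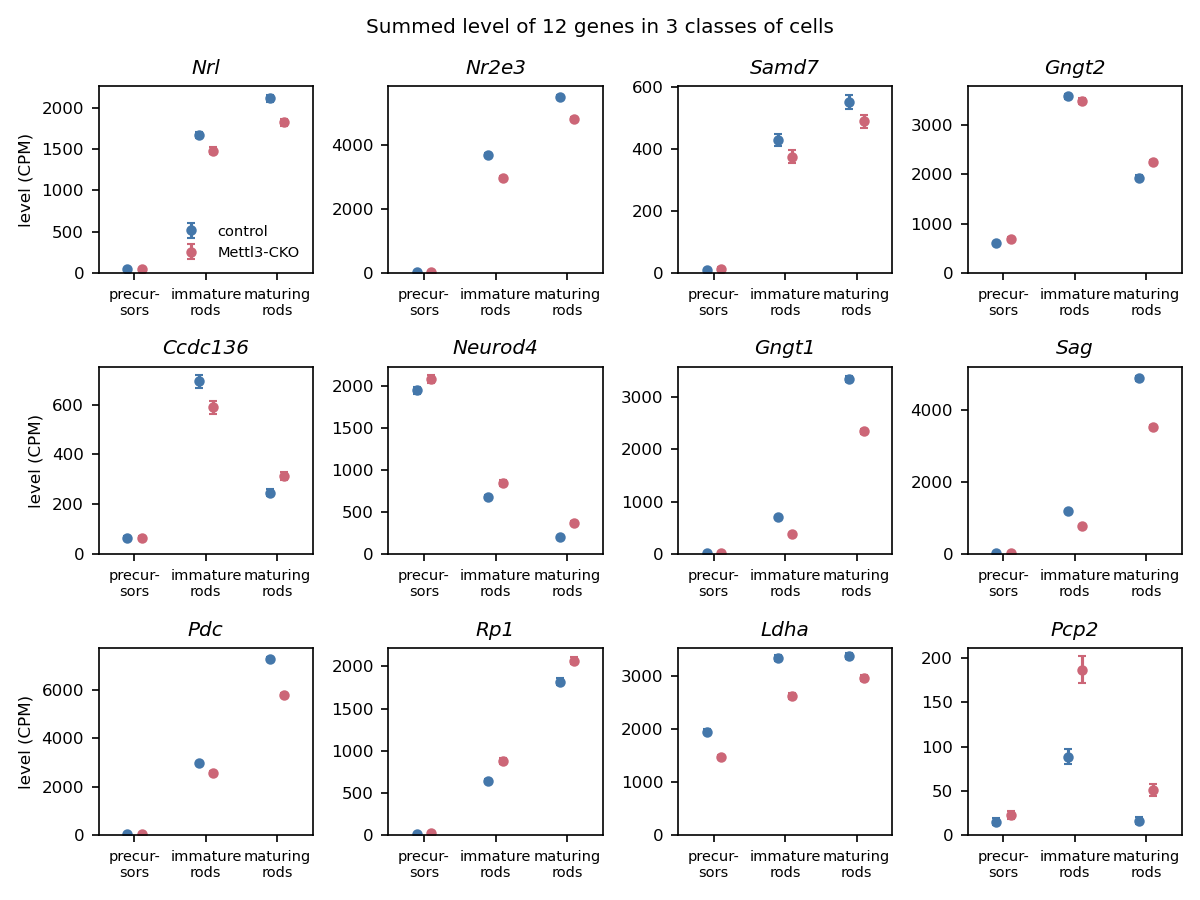
Level of 12 genes (CPM, linear vertical axes from 0, with a scale of its own for each gene) summed over Neurod4-positive precursors, immature rods and maturing rods of the control (blue) and the Mettl3-CKO library (red); lines are 95% Poisson intervals, where wider than the point. Nrl, Nr2e3, Neurod4 and Rp1 are in the rules that chose the cells. Gngt2, Ccdc136 and Pcp2 peaked in immature rods, at 3580, 694 and 88.3 CPM in control.

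For scale, of 8262 genes with at least 100 UMIs over the immature rods of both libraries, 234 (2.83%) were at least 1.5-fold higher and 113 (1.37%) at least 1.5-fold lower in the Mettl3-CKO library. At the lower minimum of 20 UMIs used for the gene lists, 893 of 11356 genes were past 1.5-fold upward and 466 downward, with a median log2 ratio of 0.01.

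The factors that steer rod fate were at similar levels in immature rods of both libraries. Of 11 such genes outside the rule, 10 had at least 20 UMIs over the members, with a median log2 ratio of Mettl3-CKO over control of -0.06, and 7 were lower and 3 higher. Otx2 was at 2514 CPM in control and 2477 CPM in Mettl3-CKO, a ratio of 0.986 (0.958 to 1.01). Crx, which works with Otx2 and Nrl on photoreceptor promoters, was at 873 and 773 CPM, a ratio of 0.886 (0.843 to 0.932). Samd7 had a ratio of 0.873 (0.813 to 0.938) and Samd11 of 0.923 (0.870 to 0.979). Prdm1, which keeps young photoreceptors from becoming bipolar cells, was the other way, at 399 and 473 CPM, a ratio of 1.19 (1.11 to 1.27). Mef2c, a MEF2-family factor, was the only gene of the list past 1.5-fold, at 5.87 and 19.1 CPM from 26 and 64 UMIs. Of its Mettl3-CKO UMIs, 35.9% lay in 5 cells. Its log2 ratio was 1.70, 1.12 without members holding microglia, amacrine or cell cycle genes, and 0.88 as a mean of per-cell CPM.

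Transcripts of rod phototransduction were lower in Mettl3-CKO immature rods. The 17 list genes outside the rule summed to 6987 CPM in control and 5441 CPM in Mettl3-CKO. Of the 14 with at least 20 UMIs, 10 were lower and 4 higher, with a median log2 ratio of -0.27, and 3 were at least 1.5-fold lower and 1 at least 1.5-fold higher. The 3 were Gngt1, the rod transducin gamma subunit, at 705 and 383 CPM, a ratio of 0.543 (0.508 to 0.580), Sag at 1207 and 772 CPM, a ratio of 0.639 (0.610 to 0.670), and Pde6b, a catalytic subunit of the rod phosphodiesterase, at 298 and 191 CPM, a ratio of 0.641 (0.582 to 0.705). The gene above the fold was Guca1a, a guanylate cyclase activator, with 14 and 16 UMIs.

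Free RNA bears on these low levels. After thinning to 1000 UMIs, Sag stood clear of background, in 45.6% and 35.0% of members against 14% and 15.9% of amacrine cells. Gngt1 was in 32.6% and 25.2% of members against 18% and 22.7% of amacrine cells, which is close in the Mettl3-CKO library. In Neurod4-positive precursors, which were chosen to be low in Nrl and Nr2e3, Gngt1 was in 1.67% and 1.06% of cells. The background for Gngt1 thus depended on the cells it was read from. Pde6b was in 25.9% and 17.3% of members against 0% and 6.82% of amacrine cells. There were 50 control and 44 Mettl3-CKO amacrine cells, and at a limit of 3 counts 0 of 50 allows a share of up to 6%.

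The size of this difference depended on the edge of the class. Among members with none of the 5 maturation genes the median log2 ratio of the phototransduction list was -0.57, and without Rp1 in the rule it was -0.12. In cells of at least 2000 UMIs it was -0.13, and with members thinned to 1000 UMIs -0.43. It was below 0 in each of these settings. In cells with Y-linked transcripts and no Xist, Pde6b had a log2 ratio of -0.34, no longer past 1.5-fold. Gngt1 and Sag stayed past it there, at -0.81 and -0.62. Without Rp1 in the rule none of these genes was past 1.5-fold, with Gngt1 at -0.58, Sag at -0.52 and Pde6b at -0.50. At a minimum of 2000 UMIs Sag fell short at -0.51, while Gngt1 and Pde6b stayed past it at -0.63 and -0.62. Without high doublet scores Pde6b fell short at -0.55, while Gngt1 and Sag stayed past it at -0.80 and -0.59.

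Other photoreceptor genes were closer to equal. Pdc had a ratio of 0.866 (0.843 to 0.890) and Gnb1, the transducin beta subunit of rods, of 0.840 (0.798 to 0.885). Of 14 genes of the outer segment and its matrix outside the rule, 9 were lower and 5 higher, with a median log2 ratio of -0.10. Rom1, a disc rim protein, was at 1984 and 1963 CPM, a ratio of 0.989 (0.958 to 1.02), while its partner Prph2 was at 668 and 555 CPM, a ratio of 0.831 (0.784 to 0.881). Aipl1, a chaperone of the rod phosphodiesterase, was the only gene of the 14 past 1.5-fold, at 72.0 and 42.7 CPM, a ratio of 0.593 (0.483 to 0.724). Of 16 ribbon synapse genes 14 were lower, with a median of -0.10. Among them were Cplx3 and Cplx4, complexins of the photoreceptor synapse, at ratios of 0.837 (0.782 to 0.895) and 0.695 (0.559 to 0.860). Snap25, a membrane fusion protein, was at 0.955 (0.906 to 1.01).

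Cone genes outside the rule did not differ by 1.5-fold. Of 6 measured, 2 were higher and 4 lower. Gngt2 had a ratio of 0.973 (0.9498 to 0.996), whose direction turned in 5 alternatives, Gnb3, the cone transducin beta subunit, of 0.879 (0.837 to 0.924), and Ccdc136 of 0.850 (0.802 to 0.899). Rxrg was at 58.0 and 45.4 CPM, a ratio of 0.782 (0.636 to 0.959). Cngb3 and Thrb were at 1.12 (0.931 to 1.35) and 1.16 (0.794 to 1.68), with intervals that include 1. Opn1sw, the short-wave cone opsin, which the rule used, was at 88.9 CPM in control and 45.1 CPM in Mettl3-CKO members.

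**Figure D3:**
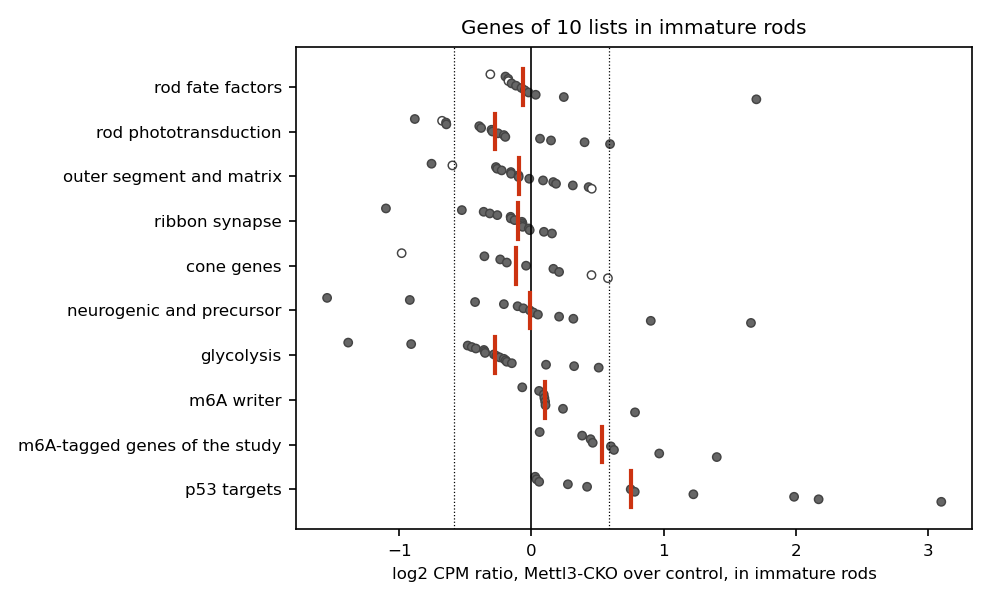
log2 ratio of CPM in immature rods, Mettl3-CKO over control (horizontal axis), for genes of 10 lists with at least 20 UMIs over the members; each point is a gene, open points are genes that the rule used, red bars are medians over the genes it did not use, and dotted lines mark 1.5-fold. The phototransduction and glycolysis lists both had medians of -0.27 and the p53 list of 0.75.

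Genes of the precursor state were mixed. Of 13 neurogenic genes measured, 6 were higher and 7 lower, with a median log2 ratio of -0.01. Neurod4, a bHLH factor of precursors, was at 677 CPM in control and 844 CPM in Mettl3-CKO members, a ratio of 1.25 (1.18 to 1.31), and in 35.4% and 42.0% of thinned members. Sox4, a factor of newborn neurons, was at 1580 and 1635 CPM, a ratio of 1.04 (0.999 to 1.07), and Insm1, a zinc finger factor of newborn neurons, at 0.866 (0.830 to 0.904). Atoh7, a factor of early retinal neurogenesis, had 28 and 67 UMIs, a ratio of 3.16 (2.01 to 5.11). Of 11 progenitor genes 9 were higher, with a median of 0.74, but these UMIs sat in few cells: 56.4% of the Mettl3-CKO UMIs of Ccnd1, cyclin D1, lay in 5 members. Without the members of high doublet score (47 control, 45 Mettl3-CKO) the median was 0.02 and Ccnd1 had a log2 ratio of -0.61.

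Transcripts of other cells were seen among the members, and some lists of them differed between the libraries. The 13 cell cycle genes summed to 133 CPM in control and 309 CPM in Mettl3-CKO, and the 17 and 23 members with at least 3 of them held 184 of 587 and 714 of 1034 of these UMIs. The 8 microglia genes summed to 12.9 and 338 CPM, and 1 Mettl3-CKO member held 1091 of 1132 UMIs. The 8 amacrine genes were at 140 and 135 CPM and the 12 bipolar genes at 247 and 330 CPM. The 11 Müller glia genes were at 1324 and 1505 CPM, with Apoe, a lipid carrier, at 614 and 903 CPM. At least 3 of them were seen in 160 and 115 members (16.1% and 18.4%). Aqp4, the water channel of mature Müller glia, was at 0 UMIs in both libraries. An alternative left out the 29 control and 30 Mettl3-CKO members with at least 3 genes of the microglia, amacrine or cell cycle list. It kept members with Müller glia or bipolar genes, whose part in the gene differences was not tested.

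Glycolytic enzymes were lower in Mettl3-CKO immature rods. The 18 genes of the list summed to 10171 CPM in control and 8285 CPM in Mettl3-CKO, 15 were lower and 3 higher, and the median log2 ratio was -0.27. Ldha, the lactate dehydrogenase subunit on which photoreceptor aerobic glycolysis runs, was at 3330 CPM (3277 to 3385) in control and 2614 CPM (2559 to 2669) in Mettl3-CKO, a ratio of 0.785 (0.764 to 0.806). Aldoa, an aldolase, was at 927 and 664 CPM, a ratio of 0.716 (0.680 to 0.755). Eno1, enolase, had a ratio of 0.732 (0.682 to 0.785) and Pgk1, phosphoglycerate kinase, of 0.748 (0.684 to 0.817), while Gapdh and Pkm were at 0.874 (0.844 to 0.906) and 0.903 (0.871 to 0.936). Aldoc and Pfkp, an aldolase and a phosphofructokinase at low levels, were the 2 genes past 1.5-fold. Ldha, Aldoa, Eno1 and Pgk1 were also lower in Neurod4-positive precursors of the Mettl3-CKO library, with ratios of 0.759 (0.734 to 0.785) for Ldha, 0.588 (0.557 to 0.621) for Aldoa, 0.673 (0.640 to 0.708) for Eno1 and 0.713 (0.673 to 0.755) for Pgk1. The list's median was -0.51 in cells with Y-linked transcripts and no Xist, and below 0 in all 12 alternatives, from -0.51 to -0.18.

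The m6A machinery itself was near equal. Mettl3 was at 41.3 CPM in control and 39.4 CPM in Mettl3-CKO members, a ratio of 0.954 (0.757 to 1.20). Reads at the 3′ end need not cover the deleted part, so this does not check the deletion. Of 8 writer genes 7 were higher, with a median of 0.10, and Rbm15, an adaptor that guides the complex to RNA, was past 1.5-fold, at 39.5 and 68.1 CPM, a ratio of 1.72 (1.41 to 2.11). Among 10 reader and eraser genes 6 were higher, with a median of 0.09, and Ythdf2, a reader that speeds decay of m6A-marked mRNA, was at 109 and 145 CPM, a ratio of 1.33 (1.17 to 1.51). Alkbh5, a demethylase, was lower, at 209 and 173 CPM, a ratio of 0.829 (0.746 to 0.921).

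The 8 m6A-tagged genes that the study singled out in late progenitors and Müller glia were all higher in Mettl3-CKO immature rods, with a median log2 ratio of 0.53 and 4 past 1.5-fold. The study chose them with these libraries in hand, so the list is not independent evidence of its direction. Ckap4, a protein of the endoplasmic reticulum, was at 86.7 and 170 CPM, a ratio of 1.96 (1.72 to 2.23). Nxt1, an mRNA export factor, was at 33.9 and 52.2 CPM, a ratio of 1.54 (1.23 to 1.93), Apex1, a DNA repair enzyme, at 88.0 and 121 CPM, a ratio of 1.38 (1.20 to 1.59), and Zfp292, a zinc finger factor, at 268 and 350 CPM, a ratio of 1.31 (1.20 to 1.42). The list's median ran from 0.35 to 0.57 over the 12 alternatives. In maturing rods it was 0.60, with all 8 genes again higher.

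Of 14 p53 targets 11 were measured, and all 11 were higher in Mettl3-CKO members, with a median of 0.75 and 6 past 1.5-fold. Cdkn1a, the cell cycle inhibitor p21, was at 12.4 CPM (9.35 to 16.2) in control and 107 CPM (95.8 to 118) in Mettl3-CKO members. It was seen in 4.03% and 11.98% of members, and 44.0% of its Mettl3-CKO UMIs lay in 5 cells. Phlda3, a repressor of Akt, was at 3.84 and 17.3 CPM and Sesn2, a sestrin, at 3.61 and 14.3 CPM. Without members of high doublet score the list's median was 0.26, with members thinned to 1000 UMIs 0.09, and among members with none of the 5 maturation genes 1.30. In maturing rods 11 targets were again higher, with a median of 0.30 and 3 past 1.5-fold, and Cdkn1a had a log2 ratio of 1.64. After thinning, Cdkn1a was in 1.11% of control and 4.95% of Mettl3-CKO members. The shares were 0.80% and 3.21% in maturing rods and 0.50% and 5.14% in precursors.

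Over all genes that met the rule for naming, the lowest ratios were those of Scg2, a secretory granule protein, at 24.4 and 8.36 CPM, a ratio of 0.343 (0.218 to 0.523), and Cdk5rap1, a mitochondrial tRNA-modifying enzyme, at 42.4 and 14.9 CPM, a ratio of 0.352 (0.252 to 0.483). Cdk5rap1 was also lower in maturing rods, at a log2 ratio of -1.44, and Scg2 was at -0.05 there. In immature rods with Y-linked transcripts and no Xist, Cdk5rap1 was at -0.69 in place of -1.51, and Scg2 at -1.48 in place of -1.54. Crym, a thyroid hormone-binding protein, was at 180 and 70.1 CPM in immature rods, and 43.0% and 51.9% of its UMIs lay in 5 cells of each library. At the other end, Mki67, a proliferation marker, Grn, progranulin, Ckap2, a spindle protein, and Hist1h2ae, a histone, had 68.1%, 77.4%, 64.0% and 73.5% of their Mettl3-CKO UMIs in 5 cells. Mab21l2, a factor of eye development, was less concentrated, at 12.9 and 34.9 CPM with 31.6% of Mettl3-CKO UMIs in 5 cells. Pcp2 was at 88.3 and 187 CPM, a ratio of 2.11 (1.86 to 2.40), in 19.2% and 34.3% of members. This difference was not particular to immature rods. The log2 ratio of Pcp2 was 1.08 in immature and 1.65 in maturing rods, and over all cells outside the class it was at 15.6 and 31.9 CPM.

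The library difference was not the same in immature and in maturing rods as the rule cut them. Of 199 list genes compared by the ratio of their ratios, the Mettl3-CKO over control ratio was higher in immature rods for 16 and lower for 59 with a 95% interval that left out 0. The median difference over these 199 genes was -0.12. The same comparison over all genes was not made, so the counts by list have no background share. Of 18 glycolysis genes 11 were lower in immature rods and 0 higher, of 9 Müller glia genes 8 and 0, and of 9 dissociation and stress genes 6 and 0. The glycolysis list's median log2 ratio was -0.27 in immature and -0.05 in maturing rods. For phototransduction the medians were -0.27 and -0.15, with 3 of 14 genes lower and 2 higher in immature rods and a median difference of 0.04. The difference was -0.37 (-0.47 to -0.26) for Gngt1, -0.28 (-0.43 to -0.12) for Pde6b and 0.13 (0.08 to 0.17) for Pdc. Neurod4 was higher in the Mettl3-CKO library in both classes, by 0.32 in immature and 0.86 in maturing rods, a difference of -0.54 (-0.68 to -0.40). For Otx2 the log2 ratios were -0.02 and 0.22 and for Ccdc136 -0.24 and 0.34. Rp1 had a difference of 0.27 (0.18 to 0.36), but the rule cuts both classes on it. Because Rp1 was itself higher in the Mettl3-CKO library, the cut need not fall alike in both libraries. The differences between the classes were not recomputed without Rp1. In immature rods chosen without it, log2 ratios were -0.58 in place of -0.88 for Gngt1 and -0.50 in place of -0.64 for Pde6b. For Pdc the log2 ratio was -0.20 in place of -0.21. The 95th percentile of UMIs per maturing rod was 9908.7 in control and 17029.8 in Mettl3-CKO. In maturing rods the median log2 ratio was 0.99 for Müller glia genes, 0.87 for progenitor genes and 0.36 for neurogenic genes. In immature rods these medians were 0.07, 0.74 and -0.01. The part of mixed cells or doublets in the differences between the classes was not tested.

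**Figure D4:**
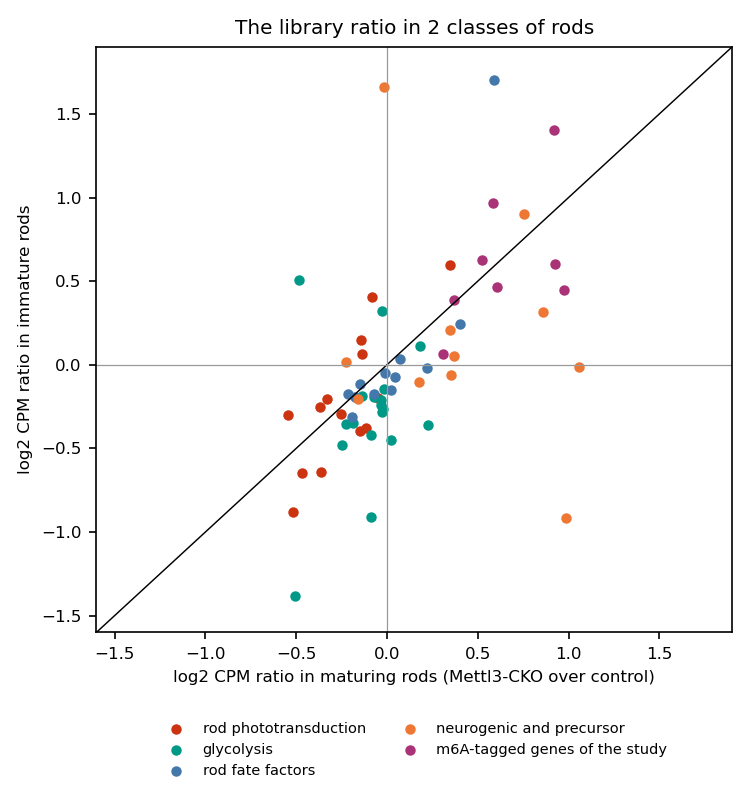
log2 CPM ratio of Mettl3-CKO over control in maturing rods (horizontal axis) and in immature rods (vertical axis) for genes of 5 lists with at least 20 UMIs, 1 point per gene; the diagonal marks equal ratios. Most glycolysis genes lie below the diagonal, with medians of -0.05 and -0.27, and the m6A-tagged genes lie above 0 on both axes.

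The immature rods were not uniform. They were ranked by the summed CPM of the 17 phototransduction genes outside the rule, over both libraries together, into 3 ranges with limits at 2115 and 8891 CPM. A range of such a sum is not a cell type, and 29 control and 20 Mettl3-CKO members lay within 10% of the lower limit and 64 and 35 within 10% of the upper. The low range held 31.8% of control and 35.9% of Mettl3-CKO members, a ratio of 1.13 (0.985 to 1.30), and the high range 36.3% and 28.6%, a ratio of 0.788 (0.679 to 0.914). On thinned cells the high range held 37.4% and 30.2%, a ratio of 0.807 (0.699 to 0.932). The median sum per cell was 5214 CPM in control and 4050 CPM in Mettl3-CKO members. Cells of the low range had more UMIs, with medians of 4852 and 4887, than those of the high range, with 3743 and 3944.

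**Figure D5:**
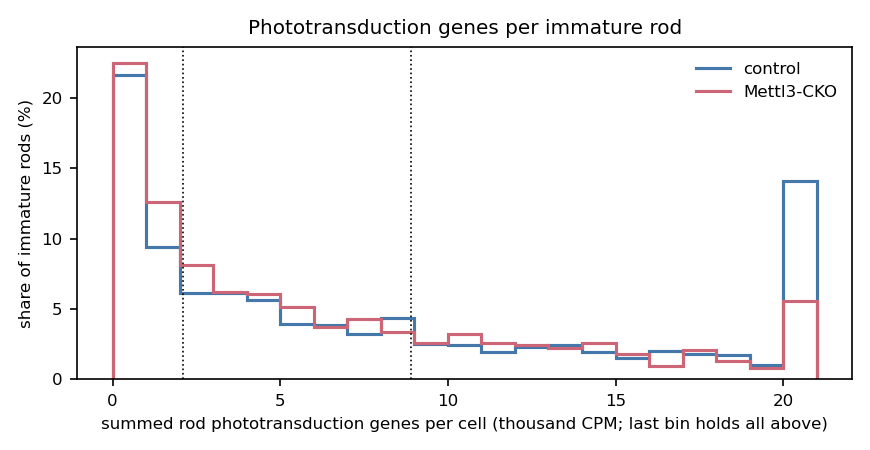
Share of immature rods (%, vertical axis) by the summed CPM of 17 rod phototransduction genes in each cell (horizontal axis, in units of 1000 CPM; the last bin holds all cells above it), control (blue) and Mettl3-CKO (red); dotted lines mark the limits of the 3 ranges at 2115 and 8891 CPM. The 95th percentile was 28147 CPM in control and 20242 CPM in Mettl3-CKO members.

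Genes outside the sum ordered along these ranges in both libraries. Neurod4 was at 1171, 477 and 227 CPM in the low, middle and high range of the control library and at 1306, 700 and 216 CPM in the Mettl3-CKO library. Otx2 went from 3487 over 2374 to 1339 CPM in control and from 3166 over 2309 to 1466 CPM in Mettl3-CKO. These precursor genes were thus highest where phototransduction was lowest. Nr2e3, which the rule used, ran the opposite way, at 1475, 4382 and 5917 CPM in control and 1139, 3470 and 5583 CPM in Mettl3-CKO. Samd7 was at 267, 496 and 582 CPM in control and 261, 450 and 469 CPM in Mettl3-CKO. Ccdc136 peaked in the middle range, at 484, 1044 and 583 CPM in control and 402, 780 and 621 CPM in Mettl3-CKO.

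Some library differences held in each range. Ldha had log2 ratios of -0.35, -0.38 and -0.24 from the low to the high range, and Pcp2 of 0.73, 1.09 and 2.10. Rp1, which the rule used, was higher in each range, by 0.80, 0.67 and 0.46. Nr2e3, also used by the rule, had log2 ratios of -0.37, -0.34 and -0.08, and Neurod4 of 0.16, 0.55 and -0.07. The values of Rp1 and Nr2e3 are descriptions only. Ccnd1 was at a log2 ratio of 1.15 in the low, 0.17 (-0.13 to 0.47) in the middle and 0.78 (0.11 to 1.45) in the high range. Over all members without high doublet scores Ccnd1 was at -0.61, and the ranges were not recomputed without those cells.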

How the data were processed

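The deposited values are raw UMI counts per gene and cell, which the authors made with Cell Ranger 3.1.0 on the mouse build mm10 (GRCm38), with Seurat 3.1 also named in the submitters' processing notes; the study's methods trimmed reads with fastp and kept cells of over 200 genes and under 20% mitochondrial UMIs. As read here the matrices ended before the number of entries on their size lines, and 3994 complete cells of 5995 control barcodes and 3109 of 6992 Mettl3-CKO barcodes were used; the rest were not analysed here. Of these, 3757 and 3023 pass that filter, as do 936 and 609 immature rods; all cells with at least 1000 UMIs were kept. Complete cells held 22181683 and 20830028 UMIs.

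Groups came from the labels' genotype. Within each library, UMIs of a class of cells were added up, leaving out 13 mitochondrial genes, and given as CPM, with exact Poisson intervals for levels, exact conditional binomial intervals for ratios, Clopper-Pearson intervals for shares and Katz intervals for ratios of shares, at 95%. With 1 library per group no test was run. A count of 0 was set against a limit of 3 counts. A gene was past the fold at 1.5-fold with at least 100 UMIs over the members, and lists used genes with at least 20. Doublets were kept; an alternative left out the 5% of each library with the highest doublet score (simulated pairs, 2000 variable genes, 20 components, 50 neighbours). Amacrine cells and microglia, which gave the background, had at least 3 genes of their list of 8.

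The 21 gene lists and the rule were chosen with earlier results of these data known. Genes named beyond the lists were the 10 highest and the 10 lowest ratios with a UMI in at least 5% of the members of a library and an interval without 1, and the 10 highest and the 10 lowest against maturing rods and against precursors in both libraries. The ranges used the sum of 17 phototransduction genes in place of the planned measure, a choice made after the data were seen. Results on some single genes are not reported here. The rule without Rp1, and members without genes of other cells, were also added after seeing the data. Scripts ran in Python 3.11.15 with numpy 2.4.6, scipy 1.17.1, pandas 2.3.3 and scikit-learn 1.9.0 and were tested on simulated data.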

Additional observations from a re-analysis of the deposited data

How the results depend on the processing

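The ratio of the share of immature rods moved by less than its counting interval from 0.801 in 9 of 11 alternatives. It was 0.710 among members with none of the 5 maturation genes and 0.888 in cells with Y-linked transcripts and no Xist, where the ratio of immature rods among rods was 1.10. With none of the 5 genes, medians were -0.11 for rod fate factors, -0.57 for phototransduction, -0.34 for ribbon synapse and 1.30 for p53 targets, 126 genes were past the fold upward, and the log2 ratio of Rgr turned to -0.40. The phototransduction median was -0.13 at a minimum of 2000 UMIs, -0.12 without Rp1 in the rule and -0.43 on thinned members. The progenitor median was 0.016 without high doublet scores, 0.19 in cells with Y-linked transcripts, 0.29 without members holding microglia, amacrine or cell cycle genes, 0.38 on thinned members and 0.40 at a minimum of 100 UMIs. The p53 median was 0.26 without high doublet scores and 0.088 on thinned members, and the glycolysis median was -0.51 in cells with Y-linked transcripts. The 234 genes higher became 148 without high doublet scores, 122 without members holding microglia, amacrine or cell cycle genes, 58 on thinned members, and 474 and 97 at a minimum of 50 and 200 UMIs. The 113 genes lower became 202 in cells with Y-linked transcripts, 64 on thinned members, and 225 and 45 at those minimums. These are counts over unequal numbers of genes, 8262 as reported, 9764 and 6185 at those minimums, 3237 on thinned members, 6292 in cells with Y-linked transcripts and 4860 with none of the 5 genes. Gngt2 turned to log2 ratios of 0.034 without high doublet scores, 0.00083 without Rp1, 0.047 without members holding microglia, amacrine or cell cycle genes, 0.015 on thinned members and 0.017 as a mean of per-cell CPM, and Ccnd1 to -0.61 without high doublet scores. Among single genes followed through the alternatives, 52 stayed within their interval in cells with Y-linked transcripts and no Xist, and 41 did not. The 41 include Pde6b at a log2 ratio of -0.34, Nxt1 at 0.11, Gnb1 at -0.048, Prph2 at -0.053 and Ccdc136 at -0.59. Of 144 list medians, 129 stayed within their interval. The cause was not tested.

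No paired analysis was possible because each group was 1 library. Leaving out a library was not possible for the same reason. Pup, pool and genotype cannot be told apart. Levels near free RNA are limited by depth, and the background for Gngt1 differed between amacrine cells and precursors.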
